A study of Homo sapiens with 8 samples.

Results

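Among the regions of open chromatin that both libraries of HEK293T cells with EZH2 WT shared, 4082 of 46998 had no peak in any of the 6 mutant libraries, and these are called WT-only regions here. ATAC-Seq was used, in which the Tn5 transposase cuts accessible DNA and the cut ends are sequenced. HEK293T cells derive from human embryonic kidney and are easily transduced. Lentiviral infection gave 4 lines, 1 with EZH2 WT and 1 each with the mutants Y641F, A677G and H689A/F667I, and every line had 2 libraries. In the study Y641F and A677G stand for gain of function (GOF), and H689A/F667I, a double mutant, for loss of function (LOF). All lines went through the same blasticidin selection, which is described as giving monoclonal populations, and no removal of the cells' own EZH2 is described. Each genotype is therefore 1 line on top of the endogenous gene, and a difference between lines cannot be told apart from a difference between clones.

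EZH2 is the catalytic subunit of Polycomb repressive complex 2 (PRC2), which methylates lysine 27 of histone H3. The trimethylated form, H3K27me3, marks developmental genes that are kept silent, and chromatin that carries it is usually compact. Open regions away from promoters are often enhancers, short stretches where transcription factors displace nucleosomes, while open CpG-rich promoters tend to stay accessible in many cell types.

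The WT-only regions were selected on the peak calls themselves. Overlapping peaks of the 8 libraries on chromosomes 1 to 22 were merged, which gave 98302 regions, and the members were chosen by having a peak in both WT libraries and none in the 6 mutant libraries. Their number is therefore a description and carries no test. Closed means here that no peak was called, which does not exclude weaker signal, since the lists end at a threshold set in each library. The libraries differed in yield. Both WT lists held the most peaks, 62739 and 60420 on chromosomes 1 to 22. The H689A/F667I lists held 46317 and 47164, the A677G lists 36744 and 44754, and the Y641F lists 25423 and 35380. The read depth of the libraries is unknown, so the part of yield in the results was not tested beyond the equal-length lists given with them.

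The DNA of 3 WT-only regions and 1 kept region, one with a peak in all 8 libraries, is given to show what kind of sequence is described. They are the exon, intron and intergenic WT-only regions with the strongest WT peaks whose central 300 bases hold no annotated untranslated region, with 1 chromosome left out of the choice, and the kept region closest in WT peak size to the intergenic one. All are the + strand of GRCh38, 300 bases around the centre of the WT peak, from the reference genome and not from reads. The TSPEAR-AS2 window is chr21:44517336-44517635, an exon of this long noncoding RNA within an intron of TSPEAR. The IL17RD window is chr3:57100109-57100408 and lies in an intron. The window nearest to DSC1 is chr18:31225732-31226031 and is intergenic. The kept window in TMEM212-AS1 is chr3:171830011-171830310 and lies in an intron of this noncoding RNA. Capitals mark the letters of a motif named further on.
TSPEAR-AS2 exon, WT-only: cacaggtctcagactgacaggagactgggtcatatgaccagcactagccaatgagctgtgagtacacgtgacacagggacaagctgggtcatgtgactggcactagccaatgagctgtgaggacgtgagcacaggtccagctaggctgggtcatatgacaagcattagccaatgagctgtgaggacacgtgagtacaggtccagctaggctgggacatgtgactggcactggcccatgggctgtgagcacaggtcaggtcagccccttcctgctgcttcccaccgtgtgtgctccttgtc
IL17RD intron, WT-only: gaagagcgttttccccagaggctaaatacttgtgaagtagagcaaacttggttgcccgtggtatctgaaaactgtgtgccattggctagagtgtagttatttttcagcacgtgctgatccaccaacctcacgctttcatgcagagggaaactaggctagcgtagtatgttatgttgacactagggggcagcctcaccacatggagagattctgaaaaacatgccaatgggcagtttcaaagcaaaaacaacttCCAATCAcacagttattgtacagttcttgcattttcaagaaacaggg
DSC1 neighbour, WT-only: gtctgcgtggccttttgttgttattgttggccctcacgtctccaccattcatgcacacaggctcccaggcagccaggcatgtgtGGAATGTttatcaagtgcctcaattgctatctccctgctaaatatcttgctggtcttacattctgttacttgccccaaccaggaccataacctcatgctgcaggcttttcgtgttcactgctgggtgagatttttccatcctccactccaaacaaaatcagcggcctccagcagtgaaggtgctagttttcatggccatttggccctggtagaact
TMEM212-AS1 intron, kept: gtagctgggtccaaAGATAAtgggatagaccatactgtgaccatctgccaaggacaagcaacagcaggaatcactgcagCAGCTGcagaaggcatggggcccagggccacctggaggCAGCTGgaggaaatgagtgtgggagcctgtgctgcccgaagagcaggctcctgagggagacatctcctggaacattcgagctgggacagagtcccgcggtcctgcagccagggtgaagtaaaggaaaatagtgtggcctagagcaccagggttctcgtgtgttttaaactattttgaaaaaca
The IL17RD window holds 1 NF-Y motif, the window near DSC1 1 TEAD motif, and the TSPEAR-AS2 window none of those searched. The kept window in TMEM212-AS1 holds a GATA motif and 2 E-boxes. GC ran from 44.7% in the IL17RD window to 56.7% in the TSPEAR-AS2 window.

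The WT-only regions made up 8.69% of the 46998 WT regions. Of the rest, 18119 (38.6%) had a peak in all 8 libraries, and those open in 1 to 5 mutant libraries numbered 4433, 4511, 4544, 4940 and 6369. The counts rose step by step from the WT-only end to the kept end, with no jump at the WT-only end. The strength of the WT peak rose along the same series, from a median −log10 p of 4.58 with no mutant peak to 10.8 with all 6. Read for the mutant lines in the same way, the rule found 117 of 20195 Y641F regions (0.579%), 158 of 28947 A677G regions (0.546%) and 369 of 34366 H689A/F667I regions (1.07%) that were open in both libraries of that line and in no other library.

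**Figure D1:**
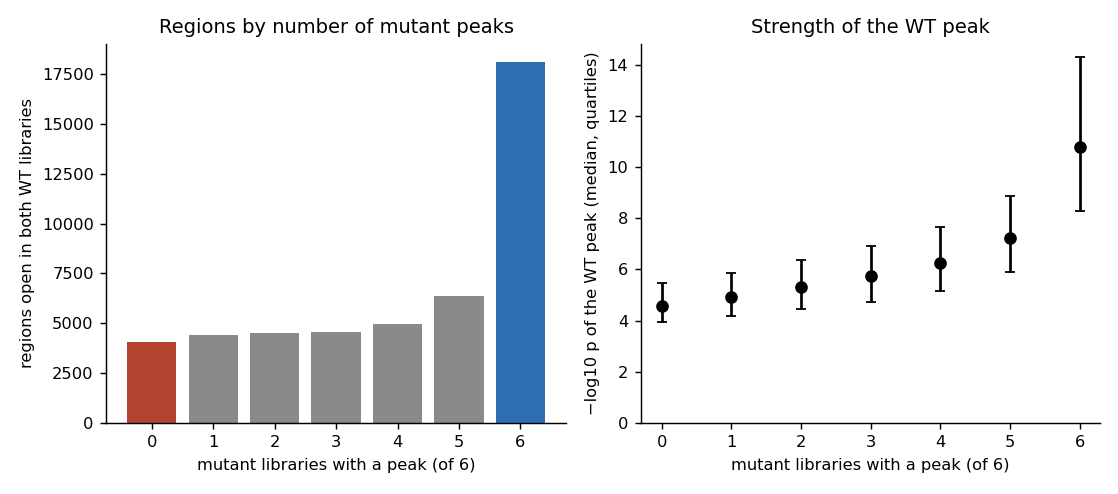
Left, number of regions open in both WT libraries (y axis) by the number of mutant libraries with a peak there (x axis), with the 4082 WT-only regions in red and the 18119 kept regions in blue. Right, median −log10 p of the WT peak with quartile bars, which climbed from 4.58 with no mutant peak to 10.8 with all 6.

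Of the mutant lines, Y641F had no peak in either library at 16560 WT regions, A677G at 9754 and H689A/F667I at 6623. The 4082 WT-only regions, which belong to each of these sets by the rule, were 24.6%, 41.8% and 61.6% of them in that order. A region just outside the rule, with 1 mutant peak, had that peak most often in an H689A/F667I library, 1286 times in replicate 1 and 1400 times in replicate 2, and least often in Y641F replicate 1, 112 times. These outside regions were close to the members in WT width (median 364 against 333 bp), fold enrichment over local background (3.55 against 3.47), −log10 p (4.91 against 4.58) and GC (47% against 46.2%). Their single mutant peak was itself small, with a median width of 286 bp and a −log10 p of 4.39.

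WT-only peaks were narrow and weak within the WT lists. In WT replicate 1 their median width was 315 bp, fold 3.43 and −log10 p 4.55, and in WT replicate 2 they were 306 bp, 3.47 and 4.59. The kept regions had medians of 1019 and 1016 bp, folds of 4.42 and 4.44 and −log10 p of 11.1 and 10.7 in the same libraries. Many lay close to the end of the lists, at a −log10 q of 1, since 36.0% and 35.2% had a −log10 q under 2 in WT replicates 1 and 2. Only 36 members (0.882%) had a −log10 q of at least 5 in both WT libraries, against 77.4% of the kept regions. The peaks of the 2 WT libraries shared a median of 58.2% of their joint length in WT-only regions and 84.9% in kept regions.

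Size was therefore tied to membership. With the WT regions put into 10 classes of equal number by width, 27.8% of the narrowest class were WT-only and 0.0638% of the widest. By −log10 p the share was 31.8% in the lowest class, and there was no WT-only region in the top 2 classes of 4700 regions each. In the plot of WT peak size the WT-only regions fill the lower left, with few kept regions among them.

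**Figure D2:**
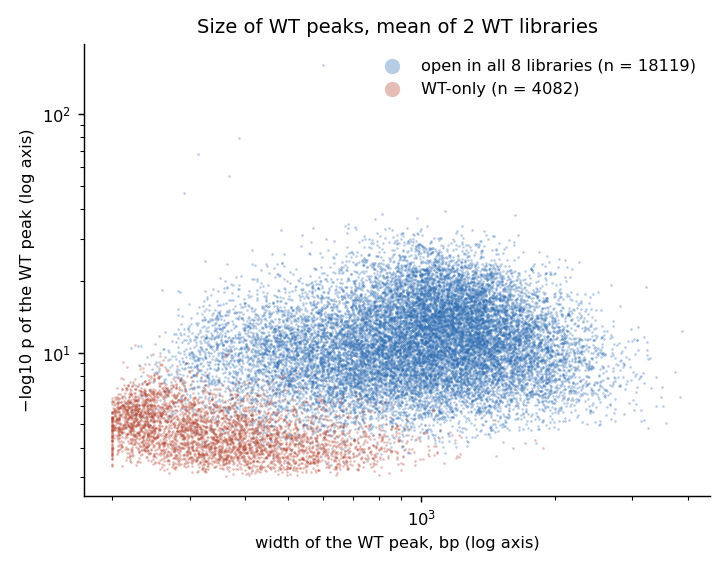
Width in bp (x axis, log) and −log10 p (y axis, log) of the WT peak, each the geometric mean of the 2 WT libraries. Red points are the 4082 WT-only regions and blue points the 18119 kept regions, and the red points lie at the low end of both axes.

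When the lists were cut to the same length, 25423 peaks with the highest −log10 p in each library, the WT line no longer stood apart. WT then had 419 regions of its own among 20527 (2.04%), Y641F 387 of 18148 (2.13%), A677G 201 of 19740 (1.02%) and H689A/F667I 251 of 19851 (1.26%). Of the 4082 members, 95 (2.33%) had both WT peaks in these shorter lists. Most of the 419 were therefore not members. With a −log10 q of at least 5 asked of the WT libraries only, the 36 members above were left of 17930 regions, and with it asked of all 8 libraries the rule gave 2542 of 17936. Most of these 2542 could not be members of the 4082, because only 36 members reach that q in both WT libraries.

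The strongest WT-only regions lay mostly far from promoters. The first, with a geometric mean −log10 p of 10.8, was a 237 bp region at chr3:57100141-57100377 in an intron of IL17RD, which encodes an inhibitor of FGF signalling, and the nearest coding start site was that of ARHGEF3, a guanine nucleotide exchange factor, 20833 bp away. It had a −log10 p of 14.7 in WT replicate 1 and 7.87 in WT replicate 2, and the closest mutant peak was 12084 bp away. The second lay at chr3:72075756-72076171 in an intron of the noncoding RNA LINC00877, 290550 bp from PROK2, a secreted prokineticin, with 9.61 and 11.4 in the WT replicates. The region nearest to DSC1, a desmosomal cadherin, had 9.36 and 11.3. The region in the TSPEAR-AS2 exon nearest to KRTAP10-1, a hair keratin-associated protein, had 8.87 and 11. Both WT libraries were well above the median of the class at each of these regions.

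An intron of LRRK2, the kinase gene linked to Parkinson disease, held the fifth, at chr12:40325388-40325647, with −log10 p of 11.1 and 8.85, and the nearest mutant peak lay 99872 bp off. An intergenic region 429263 bp from ROBO1, a receptor for the axon guidance ligand SLIT, had 12.3 and 7.88, and its nearest mutant peak was 291179 bp away. These 2 regions had the emptiest surroundings among the 10. The others were at the promoter of RPS2, 1506 bp from TMED7, far from any coding gene on chromosome 2 with RPIA as the nearest, and in an intron of ZSWIM6, with geometric means of 9.10 to 9.64.

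Most WT-only regions lay outside promoters. By place, 205 (5.02%) were promoters, defined as within 1 kb of the start site of a protein-coding transcript, 499 (12.2%) overlapped an exon, 2019 (49.5%) lay in introns and 1359 (33.3%) were intergenic. Of the kept regions 56.9% were promoters, 11.3% exonic, 17.3% intronic and 14.5% intergenic. Since kept regions are so much larger, they were also weighted to the members' mix of WT width and −log10 p in 25 strata. Promoters were then 5.05% of 3505 members and 7.03% of the kept regions, but the weights fell on few kept regions, so that they counted as 121. With the single nearest kept region in size for each member the shares were 5.02% and 3.14%, and with pairs within 0.05 on the log2 scale 5.57% and 5.48%, a version added after the data were seen. The sign of the promoter difference thus turned with the way in which like size was set, and no difference is called. GC was lower in the WT-only regions in each of these 3 versions, with medians of 46.0% against 47.8%, 46.2% against 46.4% and 45.8% against 49.3%. The weighted GC difference of -1.78 points was -2.88 without Y641F replicate 1 and -0.935 without A677G replicate 1, the ends of the range over the libraries left out, and turned to 4.15 when a −log10 q of 5 or more was asked of all 8 libraries.

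A second reading used all WT regions rather than kept ones. Each region was given the WT-only share of its cell in a grid of 10 by 10 classes of width and −log10 p, and the mean of these shares is what peak size alone would give. This reading was also added after the data were seen. All intervals are 95% Wilson intervals and cover counting error only. WT-only regions were 1.5% of WT promoters (1.31 to 1.72) where size alone gave 2.11%, and 12.7% of intronic regions where it gave 12.6%. Of intergenic regions 12.3% were WT-only (11.7 to 12.9), against 11.4% from size. Regions more than 200 kb from a coding start site were WT-only in 15.5% (14.5 to 16.7), against 12.8% from size.

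The observed share also departed from the size-based one along GC content, and GC and class were not separated. Among 5 classes of equal number by GC, the lowest ran from 21.6% to 43.6%, and 15.8% of it were WT-only (15.1 to 16.6), where size alone gave 12.4%. The highest ran from 62.6% to 84.7%, and 2.09% of it were WT-only (1.82 to 2.39), where size gave 3.25%. The ratio of observed to size-based share fell from 1.28 to 0.642 over the 5 classes.

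**Figure D3:**
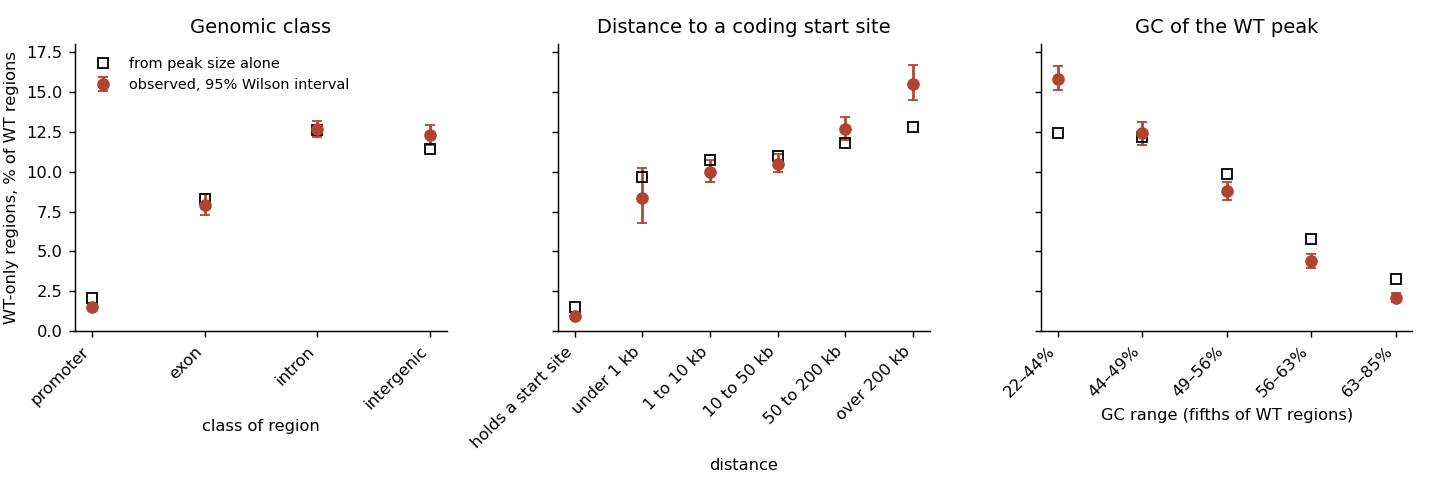
WT-only regions as a percentage of WT regions (y axis) by genomic class, by distance to the nearest coding start site and by 5 classes of GC (x axes), in red with 95% Wilson intervals. Open squares give the share from peak size alone, which lies below the red point at low GC (12.4% against 15.8%) and above it at high GC (3.25% against 2.09%).

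By chromosome the share of WT regions that were WT-only went from 4.31% on chromosome 19 (82 of 1903, 3.48 to 5.32) to 12.3% on chromosome 13 (178 of 1442, 10.7 to 14.1). Size alone gave 6.12% and 10.8% for these. Chromosome 3 held 377 WT-only regions, 11.6% (10.5 to 12.7) against 9.54% from size, and chromosome 8 held 204, 11% (9.68 to 12.5) against 9.34%. Chromosome 19 is rich in genes and GC, and chromosome 13 is poor in both. The interval spanned the size-based share for all chromosomes but 3, 8, 12, 16 and 19. This is a description and no test, since regions are no replicates and the size-based share comes from the same WT-only regions. Chromosome X, outside the rule, had 168 of 1617 (10.4%).

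**Figure D4:**
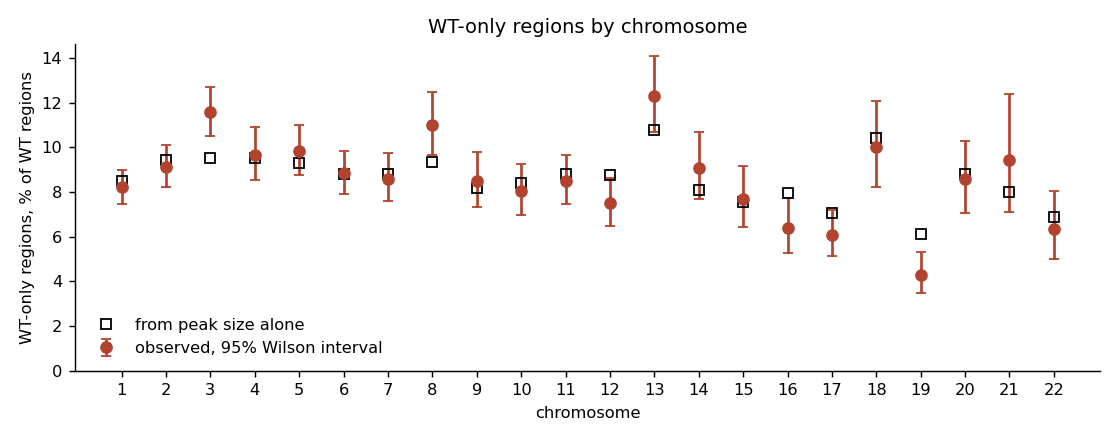
WT-only regions as a percentage of WT regions (y axis) on chromosomes 1 to 22 (x axis), in red with 95% Wilson intervals, and the share from peak size alone as open squares. Chromosome 3 (11.6% against 9.54%) lies above its square and chromosome 19 (4.31% against 6.12%) below it.

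Sequence motifs were counted in 300 bases around the centre of each WT peak, on both strands, for 10 short motifs, some of which can overlap each other. Motifs common at enhancers were more frequent in WT-only than in kept regions. The AP-1 motif (TGANTCA) was found in 15.1% of WT-only and 6.22% of kept regions. For GATA factors the letters searched were AGATAA, found in 19.0% and 9.05%. TEAD factors (ACATTCC) had 6.17% and 3.13%, and homeodomain factors (TAATTA) 7.89% and 3.54%. The motif of CTCF, the insulator protein, was found in 9.97% and 5.21%. Motifs of CpG-rich promoters were less frequent. SP and KLF (GGGCGGG) were found in 4.53% and 31.4%, ETS (CCGGAAG) in 1.42% and 8.82% and NRF1 (GCGCATG) in 0.637% and 3.54%. NF-Y (CCAATCA) was in 3.16% and 4.85%, and the E-box (CAGCTG) in 16.5% and 17.9%. RefSeq promoters of the same length held these motifs in 7.67% (AP-1), 10.4% (GATA), 3.45% (TEAD), 4.91% (homeodomain), 2.43% (CTCF), 33.1% (SP and KLF), 10.3% (ETS), 4.38% (NRF1), 6.86% (NF-Y) and 18% (E-box). None of the 10 motifs was found in 38.8% of WT-only and 34.0% of kept regions.

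Part of these motif contrasts went with size. Of WT regions with an AP-1 motif 13.3% were WT-only, where size gave 12.2%, and with a CTCF motif 9.61%, where it gave 10.2%. For TEAD the values were 12.7% and 10.5%, for homeodomain factors 12.3% and 10.9%, and for GATA 11.8% and 11.5%. For SP and KLF they were 2.19% and 3.18%, and for NRF1 2.56% and 4.16%, a ratio of 0.616 that was the farthest from 1 among the 10 motifs. Against kept regions weighted to like size, AP-1 was found in 14.7% of WT-only and 20.2% of kept regions, the reverse of the unweighted order, while CTCF stayed higher in WT-only regions with 10.6% and 6.35%. GATA (18.7% and 14.3%), TEAD (6.19% and 4.26%) and homeodomain factors (8.22% and 4.82%) also stayed higher. SP and KLF stayed lower (4.71% and 7.30%), but NRF1 (0.685% and 0.481%) and ETS (1.54% and 1.14%) turned to higher in WT-only regions. The kept regions counted as 121 in all of these. A match is a description of letters and does not show that the factor was bound.

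At promoters, the 205 WT-only regions belonged to 204 genes. Only 120 of them held a start site, against 10053 of 10318 kept promoters. Their GC (median 56.2% against 62.6%) and ratio of observed to expected CpG (0.354 against 0.756) were lower. Their peaks were also narrower (median 365 against 1196 bp) and weaker (−log10 p 4.52 against 12.1), and these contrasts were not adjusted for size. Of all WT regions that hold a start site 0.948% were WT-only, 0.632 times the share from size. A mutant peak lay within 1 kb of 33 of the 205 WT-only promoters (16.1%). The strongest was RPS2, a protein of the small ribosomal subunit, at chr16:1964816-1965078, which overlaps its start and the noncoding RNA SNHG9. It had a −log10 p of 10.0 and 9.29 in the WT replicates but a fold of only 2.52 and 2.5, below the median of the class, and a mutant peak lay 2236 bp off. HNRNPLL, a splicing factor, had 7.81 and 8.80 with folds of 2.80 and 3.12.

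At CCDC30, UBR7, LASP1NB and CTNNA3 the WT folds were above the class medians in both libraries. CCDC30 had a fold of 4.51 and 6.73, UBR7, a ubiquitin ligase of the UBR family, 4.66 and 5.72, and LASP1NB 5.46 and 4.4. CTNNA3, an alpha catenin of cell junctions, had 4.71 and 4.70 over a region of 729 bp that holds its start site. RTN2, SPATA24 and TTLL3 were also among the strongest 10, with geometric mean −log10 p of 7.17 to 7.88, and SPATA24 had lower folds, 3.06 and 3.41. CCDC30, LASP1NB, RTN2 and SPATA24 were no longer WT-only at equal peak number, and LASP1NB and SPATA24 also not when peaks under 1 kb apart were merged. At equal peak number they lost a WT peak and gained no mutant peak. The shorter WT lists ended at a −log10 p of 6.86 in replicate 1 and 6.76 in replicate 2. In replicate 1 CCDC30 had 6.60, RTN2 6.01 and SPATA24 6.77, and in replicate 2 LASP1NB had 6.72.

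For 88 genes every WT promoter region was WT-only, 0.734% of the 11995 genes with a promoter region open in WT. Genes with more than 1 start site, or that share a promoter with a neighbour, were assigned by the nearest start. They included 5 receptors for glutamate or GABA out of 24 with a WT promoter region, among them GRM7, GABRB2 and GRIN1, and 3 of 53 potassium channels, KCNF1, KCNK9 and KCNQ1. Of the axon guidance genes EPHB2, PLXNB1 and PLXNB2 were among them, 3 of 60, but a peak of A677G replicate 2 lay 145 bp from the PLXNB1 region. None of the 26 HOX genes, 27 PRC2 and PRC1 subunits and 107 targets that the study lists for both GOF mutants was among them. Further genes of the 88, picked after their values were seen, were NEUROD6, a neuronal transcription factor, PAX8, a kidney and thyroid transcription factor, SCN1A, a neuronal sodium channel, VIP, a neuropeptide, and APOB, the protein of low-density lipoprotein.

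WT-only regions were spread over many genes. Of the members 2056 (50.4%) lay in the bodies of 1798 protein-coding genes, of which 1515 held 1 and 69 held 3 or more. Hosts were long, with a median of 130 kb against 43.1 kb for all genes with a WT region, and those with 3 or more had a median of 598 kb. A gene with many WT regions has more that can be WT-only, and these medians were not set against that number. The highest count in a single gene was 6, in AUTS2, ZFPM2, ROBO2, CNTNAP2 and ENSG00000285708. AUTS2 is a partner of a PRC1 complex in neurons, ZFPM2 a GATA cofactor, ROBO2 an axon guidance receptor and CNTNAP2 a neuronal adhesion protein. ENSG00000285708 is a gene model that overlaps the forkhead factor FOXP1. AUTS2 had 37 WT regions and 16 kept ones, and size alone gave 5.27 WT-only regions there. For ROBO2 size gave 2.68 of 19 WT regions, for ZFPM2 2.43 of 20, for CNTNAP2 3.89 of 34 and for ENSG00000285708 2.91 of 33.

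Other hosts held 4 or 5. PDZRN3, a ubiquitin ligase gene of 243 kb, held 5 WT-only regions among 10 WT regions, where size gave 1.93, and FOXP1 held 5 of 27, where size gave 2.76, in sequence that it shares in large part with ENSG00000285708. TBPL2, a relative of the TATA-binding protein used in oocytes, held 4 of its 5 WT regions within 42.5 kb, where size gave 0.705, and none was kept. GREB1L held 4 of 12, where size gave 1.93, and TIAM1, a Rac exchange factor, 4 of 16, where size gave 2.72. Longer genes also held 4, such as PTPRG (1.28 from size), NAV2 (3.89) and PCDH9 (4.53). The hosts named were picked for their counts, and among ties for shorter length, so the excess over size carries no test.

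The gene lists were read by the share of WT regions in their bodies that were WT-only, which was 7.34% over all protein-coding genes (7.74% from size). A region in overlapping gene bodies was counted for each gene, so that the 2056 members in bodies made 2187 counts. Receptors for glutamate and GABA had the highest share, 20 of 111 or 18% (12 to 26.2), where size gave 11.6%, with GABRA6 and GRID1 holding 2 each and GRM7 1 in its body and 4 nearest to it. The promoter region of GABRB2 overlaps GABRB2 and GABRA6, so the 20 may count it for both. Collagens and integrins, genes of the cell matrix and its receptors, had 12.5% (8.61 to 17.8) against 10.0% from size, with 3 regions in ITGA9. Potassium channels had 12.3% (11% from size), contactins, neurexins, neuroligins and partners 10.8% (12.1%), phosphodiesterases 10.8% (10.6%), axon guidance genes 9.57% (9.71%) and cadherins and protocadherins 9.09% (9.47%). In the last list PCDH9 held 4 members and was the nearest gene of 9, while PCDH17 held none and was nearest to 5.

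Lists of Polycomb subunits and of developmental genes were close to their size-based share. The targets that the study lists were above theirs, though within the interval. The SOX, TBX, GATA and forkhead factors had 8.70% (8.57% from size), WNT ligands, receptors and antagonists 7.02% (6.31%), PRC2 and PRC1 subunits 9.43% (8.32%), with 3 regions in JARID2, and HOX genes 2 of 62 or 3.23% (3.03%), in HOXA3 and HOXB7. The 108 targets that the study lists for both GOF mutants had 39 of 398 or 9.80% (7.25 to 13.1), against 7.84% from size. Part of the evidence by which the study chose this list came from these same samples, so its share is no independent evidence. It included ARFGEF3, DCDC2 and FHOD3 with 3 regions each, and NRP2, a semaphorin receptor, with none in its body and 3 nearest to it. ZNF zinc finger genes had 4.35% (4.02%) and cytosolic ribosomal proteins 1 of 57 or 1.75% (3.14%). The size-based share was within the interval of the observed one for all of these lists but that of the glutamate and GABA receptors. Since a region can count for more than 1 gene and regions are no replicates, no list is called different.

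The WT region next to a WT-only region was somewhat more often WT-only than size gave, by the most where it lay over 100 kb away. The next WT region along the chromosome was also WT-only for 452 of 4081 members, 11.1% (10.1 to 12.1), where size alone gave 9.52% and the share over all WT regions was 8.68%. For neighbours more than 100 kb apart it was 16.1% (13.7 to 18.8) against 11.2% from size, and 12.8% over all WT regions at that distance. Close neighbours were near the share from size, with 10.3% (8.35 to 12.6) against 9.47% under 10 kb and 8.83% (7.58 to 10.3) against 8.67% at 10 to 50 kb. At 50 to 100 kb it was 11.7% (9.55 to 14.2) against 9.74%. Leaving out WT replicate 1 or 2, so that the other alone chose the regions, gave 23.1% and 25.5% against 21.0% and 22.9% over all regions so chosen. Runs of 2 or more held 840 members (20.6%), in 334 pairs, 47 runs of 3, 5 of 4, 1 of 5 and 1 of 6.

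The run of 6 was at chr13:58018891-58850534, a stretch of 832 kb with no protein-coding gene between DIAPH3 and PCDH17, a protocadherin of neurons. Its WT peaks were 200 to 855 bp wide with −log10 p of 3.72 to 6.85, and 4 other regions of any library lay in the stretch. The run of 5 spanned 2064 kb near RALYL and SNX16 on chromosome 8. At TBPL2 the run of 4 was packed into 21.1 kb (chr14:55427584-55448653), with −log10 p from 3.71 to 9.75. The other runs of 4 lay around AASDHPPT over 69.7 kb, APOB and TDRD15 over 270 kb, GRM7 over 310 kb and FAM135B over 636 kb. At APOB and at GRM7 1 of the 4 regions was the promoter. Size alone gave a WT-only share of 14.4% to 34.6% for the regions of these 7 runs, above the 8.69% of all WT regions.

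The distance to mutant peaks varied widely. A peak of any mutant library lay within 1 kb of 250 members (6.12%) and within 10 kb of 48.6%, at a median distance of 10418 bp. By library the share within 1 kb ran from 0.955% for Y641F replicate 1, the shortest list, to 2.65% for H689A/F667I replicate 2, the longest of the mutant lists.

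Whether such regions recur in a replicate was read with the choice made on replicate 1 of the 4 lines alone. Of 20377 regions open in WT replicate 1 and in none of the replicate 1 mutant libraries, 40.0% were open in WT replicate 2 (39.3 to 40.7), 18.8% in H689A/F667I replicate 2, 15.1% in A677G replicate 2 and 7.22% in Y641F replicate 2. Over all regions open in WT replicate 1, with no such choice, WT replicate 2 also led. There 75.4% were open in WT replicate 2, 62.1% in H689A/F667I replicate 2, 58.4% in A677G replicate 2 and 48.0% in Y641F replicate 2. For the chosen regions WT replicate 2 was 26.3 points above the mean of the mutant libraries. Yet the WT list was the longest, and regions that only H689A/F667I replicate 1 had were also open more often in WT replicate 2 (22.5%) than in their own replicate (15.2%). The same held for A677G, with 16.6% and 11.6%, and for Y641F, with 8.87% and 7.84%.

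With lists of equal length the WT regions again recurred most in WT, at 35.2% (33.5 to 36.9), against 24.2% in H689A/F667I, 22.2% in A677G and 16.9% in Y641F. Regions of the other lines then also recurred most in their own replicate, with 25.6% for H689A/F667I, 22.7% for A677G and 13.7% for Y641F. For A677G and H689A/F667I the interval overlapped that of the next library, at 20.3% in Y641F and 23.2% in WT. The lead of WT over the mean of the mutant libraries was 14.1 points. Over all WT replicate 1 regions of these lists, 81.0% were open in WT replicate 2, against 78.1% in H689A/F667I, 77.4% in A677G and 75.3% in Y641F. With replicate 2 choosing and replicate 1 read, all peaks gave 39.7% for WT and a lead of 31.3 points. Each line is 1 line with 2 libraries, and with 1 WT line among 4 an exact permutation over lines could not go below p = 0.25, so no test was made.

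**Figure D5:**
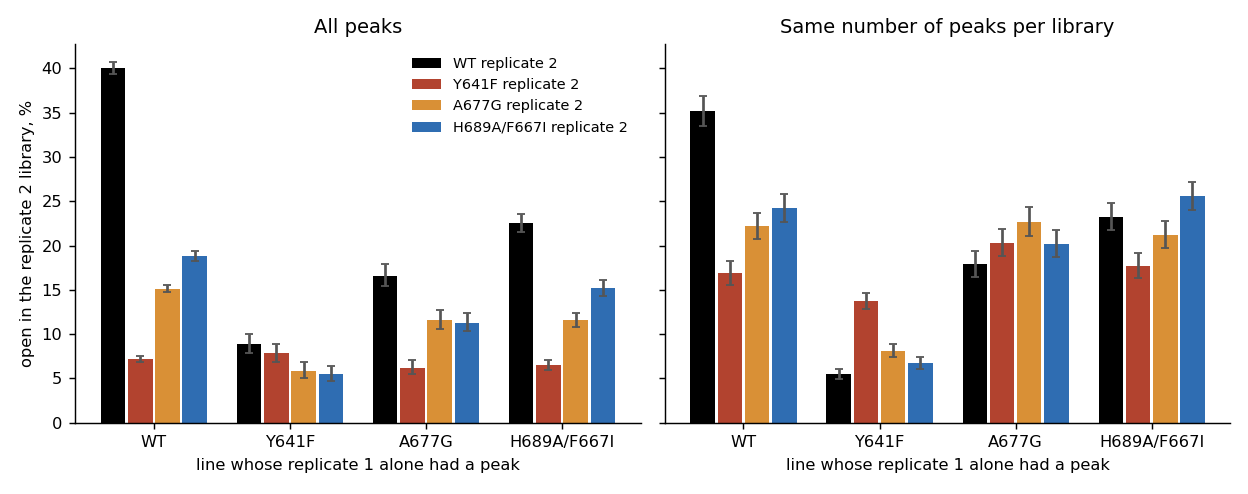
Percentage of regions open in each replicate 2 library (y axis, bars with 95% Wilson intervals) among regions that only 1 line had in replicate 1 (x axis), for all peaks (left) and for equal list lengths (right). With all peaks the WT bar leads in each group, as at H689A/F667I with 22.5% against 15.2%, while at equal length each line leads in its own group, as for WT with 35.2%.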

How the data were processed

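ATAC-Seq was performed by the authors in HEK293T lines with EZH2 WT, Y641F, A677G or H689A/F667I, described as 2 independent biological replicates each. Titles of the samples gave the groups and replicate numbers. The study's methods and the submitters' processing notes state that reads were trimmed with Trim Galore 0.6.5, aligned to GRCh38/hg38 with BWA 0.7.17 and freed of duplicates, and MACS2 2.2.7.1 called peaks, here broad peaks in each library. The deposited lists give, per peak, a fold over local background, a −log10 p and −log10 q averaged over the broad peak, and a score, which was not used. Read depth and the handling of transposase offsets and mitochondrial reads were not given in the sources used here. These lists hold no read counts, so the count-based test of the study was not run.

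Peaks on chromosomes 1 to 22 that shared at least 1 bp were merged with Python 3.11.15, pandas 2.3.3 and numpy 2.4.6. WT width, fold and −log10 p of a region are geometric means of the 2 WT libraries. Places came from GENCODE 44 and sequences from hg38 by pysam 0.24.0. RefSeq promoters are 300 bases around start sites. Kept regions were weighted to the members in 5 by 5 quantiles of width and −log10 p. The members, gene lists and comparisons were chosen with earlier results of these data known. Named regions were the 10 strongest WT-only regions and the 10 strongest at promoters. Also named were the 10 host genes with most members, shorter genes first among ties, and the longest runs, of which 7 are given because of ties. Gene lists name up to 4 members each. Sequence windows that overlap an untranslated region were passed over. Some items that these rules name are not reported here. Merging, selection and weighting were tested on simulated data. Alternatives were stricter thresholds, equal list length (25423 peaks), other merging, cover, promoter and size rules, and each library left out.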

Additional observations from a re-analysis of the deposited data

How the results depend on the processing

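The count of 4082 WT-only regions, 8.69% of WT regions, became 2542 when all libraries had to reach a −log10 q of 5, a higher share of 14.2%. With that limit in the WT libraries only the count was 36 (0.201%), and at equal peak number it was 419 (2.04%). Without 1 library at a time it ran from 4196 to 14287. The high values came from leaving out WT replicate 1 (12612) or WT replicate 2 (14287), where a single WT library chose the regions. It stayed within 1.5 times under 50% cover, merging of peaks under 1 kb apart, chromosome X and pairwise overlap.

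The weighted promoter difference of -1.98 points reversed to 3.86 with that limit in all libraries, 0.0441 with the start sites of all genes, 1.89 with the nearest kept region and 0.0905 with the nearest within 0.05 log2. It was -18.9 with the q limit in WT only (27 members), -12.2 at equal peak number, -3.79 with peaks under 1 kb apart merged, -8.30 with promoters of 2.5 kb and -20.7 with strata of width and fold. Without 1 library it ran from -5.02 to -0.767, with over 1.5 times the change without WT replicate 1 (-5.02), Y641F replicate 1 (-3.26), A677G replicate 2 (-0.767) or H689A/F667I replicate 2 (-1.24).

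The GC difference of -1.78 points reversed to 4.15 with that limit in all libraries. It was -2.63 with the q limit in WT only, -2.98 at equal peak number, -2.73 under 50% cover and also with chromosome X, -2.67 with peaks under 1 kb apart merged, -0.208 with the nearest kept region, -3.47 within 0.05 log2, -7.61 with strata of width and fold and -2.33 in 300 bases around the centre. Without 1 library it ran from -2.88 to -0.935, with over 1.5 times the change without WT replicate 1 (-2.73), WT replicate 2 (-2.81), Y641F replicate 1 (-2.88) or A677G replicate 1 (-0.935).

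The share of members whose next WT region was WT-only, 11.1%, was 16.1% with the q limit in all libraries (14.2% over all regions), 0 with it in WT only, 2.87% at equal peak number (2.04%) and 17.1% under 50% cover (14.9%), and 11.3% to 25.5% without 1 library. The lead of WT in the replicate not used to choose, 26.3 points, was 31.3 with replicate 2 choosing, 39.8 with the q limit and 14.1 at equal peak number, a setting added after the data were seen, as were the pairs within 0.05 log2. The cause of these shifts was not tested. Of 19 regions named for their strength, 11 were still WT-only with either q limit, 14 at equal peak number, 16 under 50% cover and 17 with peaks under 1 kb apart merged. The regions that dropped out were all promoters, but the named promoters included weaker WT peaks. Their geometric mean −log10 p went down to 7.17, while the 10 strongest regions had at least 9.10. The RPS2 and HNRNPLL promoters stayed WT-only in each setting.

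No paired analysis was possible because no result here comes from a test, and the replicate numbers are not stated to mark shared cultures. The lists carry no depth, so a weak region that falls under the threshold of a shorter list cannot be told apart from a closed one. Kept regions of the members' size were few, which limits each comparison with them.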
